A study of Mus musculus with 38 samples.

Results

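The comparison was between 5 *BRAF*(+) and 5 *BRAF*(-) asymptomatic thyroids (AT), which are 10 of the 38 mouse thyroids of the series, and it was made over all 23410 annotated probe sets of the array. The mice were FVB/N. *BRAF*(+) mice carried human BRAFV600E cDNA with a 2HA tag behind the bovine thyroglobulin promoter, which limits the transgene to thyroid follicular cells, and they were classed as positive because transgene RNA was found in the thyroid. *BRAF*(-) AT mice lacked that RNA and had been genotyped as non-transgenic. RNA came from one piece of each gland and the diagnosis of an asymptomatic thyroid from histology of the rest, so the arrays and the diagnosis describe different tissue. The *BRAF*(+) group held 4 females and 1 male aged 7 to 11 months, and the *BRAF*(-) group held 3 females and 2 males aged 4 to 12 months. Of the *BRAF*(+) mice, M_779, 7 months old, came from the tg2 line, which had more of the transgene's protein, and the other 4 came from the tg3 line. The *BRAF*(-) mice came from the tg2 and tg3 lines, M_771, the 4-month-old one, from tg2, and which line each of the other 4 came from was not settled. In addition, 4 *BRAF*(+) and 4 *BRAF*(-) benign hyperplastic lesions (BHL), which are other mice aged 4 to 11 and 6 to 24 months with 3 females and 1 male in each group, were set beside them, and 1 of those *BRAF*(-) mice, from the tg1 line, had been genotyped as transgenic but lacked the transgene's RNA. For some values 10 borderline lesions (BL) and 10 papillary carcinomas were also read, all *BRAF*(+) mice of the tg2 and tg3 lines. Those mice were aged 4 to 21 and 6 to 21 months, respectively, with 8 females and 2 males in each group.

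BRAF is a kinase of the RAF, MEK and ERK cascade, and its mutant BRAFV600E signals without an upstream RAS input. In the human thyroid this mutation is the most frequent driver of papillary carcinoma (PTC), in which thyroid hormone synthesis genes are usually lost and ERK target genes are raised. The comparison asks which transcripts differ between glands with and without the transgene's RNA where no lesion was diagnosed.

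Values are log2 signals, so that a difference of 1 is a 2-fold difference, and each mouse gave 1 array, so that p-values rest on the spread between mice. *Tg*, the gene of thyroglobulin, was at 13.62 to 13.74 in all 10 mice, near the highest value of the whole table (14.18), and *Xist* and *Eif2s3y* fitted the recorded sex of each mouse. Libraries that stood apart were both *BRAF*(-). M_940 had a mean over 19 skeletal muscle genes of 9.39, against 5.43 to 5.85 in the other 9 mice, and M_524 had the parathyroid hormone gene *Pth* at 12.87, against 3.04 to 3.72. *Braf* itself was at 8.99, 9.31, 8.78, 9.23 and 9.33 in *BRAF*(-) AT, against 9.28, 9.24, 9.49, 9.33 and 9.57 in *BRAF*(+) AT. The groups overlapped, and the difference of 0.24 had a 95% interval from -0.046 to 0.53 (limma adjusted p = 0.628; two-sided exact permutation p = 0.0952 with 0.00794 the smallest possible). In BHL the same probe set was 0.83 higher in *BRAF*(+) mice (adjusted p = 0.0119). How far mouse probes read the human transgene was not tested.

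With sex as a covariate in limma, 69 of 23410 probe sets (0.295%) passed an adjusted p of 0.05, of which 65 were higher (0.278%) and 4 lower (0.0171%) in *BRAF*(+) AT. They stood for 50 genes that rose and 4 that fell, and 14 of the probe sets carry several gene names and were not named. In 62 of the 65 every *BRAF*(+) mouse lay above every *BRAF*(-) mouse, which was so for 1.41% of all probe sets, and in all 4 of the lower ones every *BRAF*(+) mouse lay below, which was so for 0.692%. Of the 69, 33 were at least 4-fold, whereas the median size of a difference over all probe sets was 0.11. The 69 were chosen by adjusted p, which favours large and well separated differences. Their size and the separation of the groups, set beside all probe sets, are therefore partly set by that choice. The count moved by over 1.5 times without any 1 mouse except M_523: it was 533 without M_779, 44 each without M_1003 or M_771, 39 without M_524, 36 without M_940, 26 without M_948, 23 without M_945, 18 without M_956, 13 without M_957 and 22 without both M_524 and M_940, which stood apart, and 12 of the 69 stayed called in every fit that left out 1 mouse. These 12 were the probe sets of *Sftpb*, *Sftpa1*, *Sftpd*, *Lcn2*, *Chil1*, *Gng4*, *Dlk1*, *Acpp*, *Olfr975* and *Olfr979*, and 2 of immunoglobulin genes. Every other probe set named below as called, higher or lower, lost its call in at least 1 of these fits. All 69 kept their direction in each fit that left out 1 mouse.

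**Figure D1:**
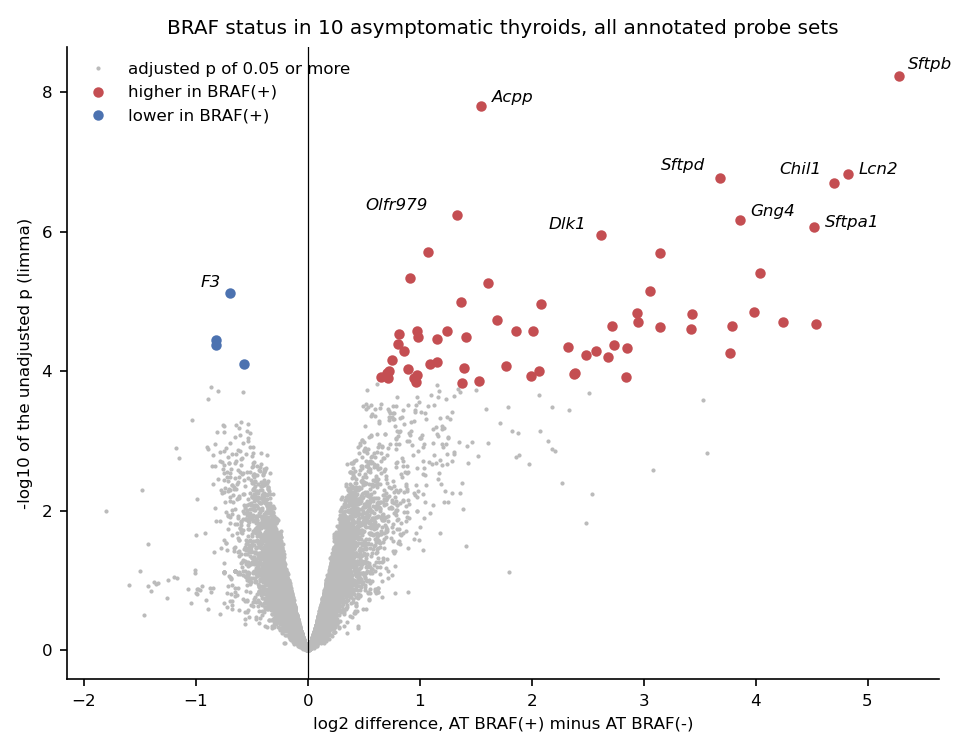
Each point is 1 of 23410 annotated probe sets in the 10 asymptomatic thyroids, with the log2 difference, *BRAF*(+) minus *BRAF*(-), on the x axis and the -log10 of limma's unadjusted p on the y axis. The 65 probe sets called higher (red) reach a difference of 5.29 at *Sftpb*, while the 4 called lower (blue) reach no further than -0.82.

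Among the genes that rose most were those of the lung surfactant. Surfactant is the film of lipid and protein that type II alveolar cells spread over the lung surface, and its genes are bound by NKX2-1, a transcription factor that lung and thyroid share. *Sftpb*, which encodes surfactant protein B, was at 6.40, 6.30, 6.29, 6.30 and 6.05 in *BRAF*(-) AT, against 12.42, 10.91, 10.19, 12.22 and 12.30 in *BRAF*(+) AT. The lowest *BRAF*(+) mouse thus lay well above the highest *BRAF*(-) mouse, and the difference was 5.29 (SE 0.38, 39.0-fold; adjusted p = 0.000137). *Sftpa1*, the gene of the collectin surfactant protein A, was at 5.71, 6.35, 6.14, 6.07 and 6.17 in *BRAF*(-) AT, against 11.40, 11.40, 8.19, 10.64 and 11.04 in *BRAF*(+) AT. M_779 was the low mouse here, and the difference was 4.52 (SE 0.50, adjusted p = 0.00256). *Sftpd*, which encodes the related collectin surfactant protein D, rose by 3.68 (SE 0.35, adjusted p = 0.000931), from 5.24 to 6.18 in *BRAF*(-) AT to 8.39 to 10.64 in *BRAF*(+) AT. *Slc34a2*, the sodium and phosphate cotransporter of alveolar type II cells, rose by 1.61 (SE 0.21, adjusted p = 0.009), from 5.91 to 6.47 up to 7.37 to 8.41.

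Not all of the surfactant genes were called. Of 10 listed genes of surfactant and the lamellar body, which stores it, 4 rose, 0 fell and 6 did not pass, and the median difference was 0.81 against 0.0048 over all 19938 genes. Of all genes 0.241% were called higher. All 10 differences were above 0 (51.1% of all genes), and 6 were higher at an unadjusted p of 0.05 (6.01% of all genes). *Napsa*, an aspartic protease that processes surfactant protein B, had a difference of 1.25 (adjusted p = 0.0854), and *Lamp3*, a membrane protein of the lamellar body, had 0.37 (adjusted p = 0.378). *Sftpc*, whose product is found only in type II cells, was low in both groups, at 4.47 to 5.25 in *BRAF*(-) AT, against 4.24 to 5.40 in *BRAF*(+) AT, with a difference of 0.10 (adjusted p = 0.95). *Abca3*, the lipid pump of the lamellar body, was at 9.07 to 9.34 and at 8.86 to 9.50, respectively (difference 0.072, adjusted p = 0.924). *Sftpc*, the marker that defines type II cells, thus stayed low in all 10 mice. *Scgb1a1*, the club cell secretoglobin of the airway, was at 6.38 to 10.11 in *BRAF*(-) AT, against 5.11 to 7.64 in *BRAF*(+) AT (difference -1.80, adjusted p = 0.296).

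The stretches in front of the genes of surfactant proteins A and B, of *Slc34a2* and of *Lcn2*, 4 of 11 called genes whose promoters were searched, are shown as those of the called surfactant genes in the table and of the gene with the next largest difference after *Sftpb*. They are the 250 bases before the annotated start, 5′ to 3′ on the strand of the gene, from RefSeq on GRCm38.p6, and lie upstream of the transcript. Capitals mark matches, on either strand, to CTCAAG, a core bound by NKX2-1, to TGANTCA, the AP-1 site, to CCGGAAG, an ETS site, and to TTGCNNAA, a C/EBP site.
*Sftpb*, chr6:72304360-72304609, plus strand: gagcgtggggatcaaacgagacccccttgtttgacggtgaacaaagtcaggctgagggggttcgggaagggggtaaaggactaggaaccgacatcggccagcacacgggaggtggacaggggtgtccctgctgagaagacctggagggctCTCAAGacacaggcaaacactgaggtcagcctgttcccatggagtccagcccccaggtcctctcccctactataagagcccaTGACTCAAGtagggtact
*Sftpa1*, chr14:41131538-41131787, plus strand: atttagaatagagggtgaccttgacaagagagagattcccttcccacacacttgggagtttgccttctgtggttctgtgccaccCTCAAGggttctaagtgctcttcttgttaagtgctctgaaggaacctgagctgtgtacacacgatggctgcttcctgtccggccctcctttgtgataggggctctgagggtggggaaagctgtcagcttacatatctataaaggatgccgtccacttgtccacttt
*Slc34a2*, chr5:53049103-53049352, plus strand: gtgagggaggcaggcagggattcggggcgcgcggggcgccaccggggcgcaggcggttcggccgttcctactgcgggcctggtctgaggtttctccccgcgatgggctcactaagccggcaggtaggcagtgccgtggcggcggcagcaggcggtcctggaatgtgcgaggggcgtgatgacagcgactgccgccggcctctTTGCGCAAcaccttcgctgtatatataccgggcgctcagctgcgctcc
*Lcn2*, chr2:32387740-32387989, minus strand: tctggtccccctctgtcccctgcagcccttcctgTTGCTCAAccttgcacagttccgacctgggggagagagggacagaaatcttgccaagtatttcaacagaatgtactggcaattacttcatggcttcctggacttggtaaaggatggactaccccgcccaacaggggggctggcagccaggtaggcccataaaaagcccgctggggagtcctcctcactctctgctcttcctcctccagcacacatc
*Sftpb* held 2 matches to CTCAAG, of which 1 overlaps its single match to TGANTCA, and *Sftpa1* held 1 match to CTCAAG. *Slc34a2* and *Lcn2* held 1 match each to TTGCNNAA. CTCAAG occurs in 13.3% of 32841 promoters of the same length, TTGCNNAA in 9.57%, CCGGAAG in 6.91% and TGANTCA in 6.75%, so that a match in 1 promoter is common. Among the other 7 genes searched, *Chil1*, *Dlk1*, both starts of *Gng4* and *Olfr979* held no match to any of these motifs, *Acpp* held 1 CTCAAG, *Olfr975* 1 TTGCNNAA and *Olfr980* 1 CTCAAG and 1 TTGCNNAA.

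*Lcn2*, which encodes an iron-binding lipocalin of innate defence, was at 5.50, 5.74, 5.36, 7.25 and 4.92 in *BRAF*(-) AT, against 11.31, 10.26, 9.30, 11.15 and 11.23 in *BRAF*(+) AT. The difference was 4.83 (SE 0.46, 28.4-fold; adjusted p = 0.000931), and M_956 was the highest *BRAF*(-) mouse. *Chil1*, the gene of a chitinase-like glycoprotein raised in many carcinomas, was at 4.96 to 5.51 in *BRAF*(-) AT, against 10.82, 8.64, 8.67, 10.96 and 11.35 in *BRAF*(+) AT, a difference of 4.70 (SE 0.46, adjusted p = 0.000931). Of 21 measured markers of human PTC these were the only ones called (0.241% of all genes were called higher), and the median of the list was 0.12. At an unadjusted p of 0.05, 4 of the 21 were higher and 1 was lower, against 6.01% and 3.81% of all genes. In 3 of the 21 every *BRAF*(+) mouse lay above every *BRAF*(-) mouse, which was so for 1.49% of all genes. Some diagnostic markers of that list moved little: *Krt19*, *Cited1* and *Lgals3* differed by 0.046, 0.047 and 0.18, with adjusted p-values of at least 0.908. Other secreted products that rose were *Clu*, the chaperone clusterin, by 2.07 (SE 0.37, adjusted p = 0.041), *Pglyrp1*, a protein that binds bacterial peptidoglycan, by 1.86 (SE 0.29, adjusted p = 0.0189), and *Il1rn*, the antagonist of the interleukin 1 receptor, by 1.25 (SE 0.19, adjusted p = 0.0189). *Penk*, which encodes the enkephalin precursor, rose by 1.16 (SE 0.20, adjusted p = 0.0344).

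*Gng4*, a G protein gamma subunit, was at 5.84 to 7.77 in *BRAF*(-) AT, against 10.96, 9.86, 9.02, 10.98 and 10.90 in *BRAF*(+) AT, a difference of 3.86 (SE 0.42, adjusted p = 0.00228). *Dlk1*, an imprinted gene whose product is a ligand related to those of Notch, was at 6.61 to 6.90 and at 10.10, 8.01, 9.28, 10.25 and 10.37, respectively, a difference of 2.62 (SE 0.30, adjusted p = 0.00293). M_523, the single *BRAF*(+) male, was the lowest of its group here. *St8sia6*, a sialyltransferase, rose by 2.73 (SE 0.44, adjusted p = 0.0244), *Tgm1*, the transglutaminase of keratinocytes, by 2.08 (SE 0.29, adjusted p = 0.0141), and *Cntn3*, a neural adhesion molecule, by 2.32 (SE 0.38, adjusted p = 0.0248). *Lratd1*, *Elapor2*, *BC023105*, *Lipk* and *Lipi* also belonged to the 20 genes that rose most, by 2.02 to 2.85, with adjusted p-values of 0.0189 to 0.0444. *Acpp*, an acid phosphatase, was at 7.11, 7.03, 6.74, 7.14 and 6.66 in *BRAF*(-) AT, against 8.40, 8.40, 8.42, 8.54 and 8.57 in *BRAF*(+) AT. Its *BRAF*(+) mice had an SD of 0.084, and the difference of 1.55 (SE 0.12) had the second smallest p of all probe sets (adjusted p = 0.000186).

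**Figure D2:**
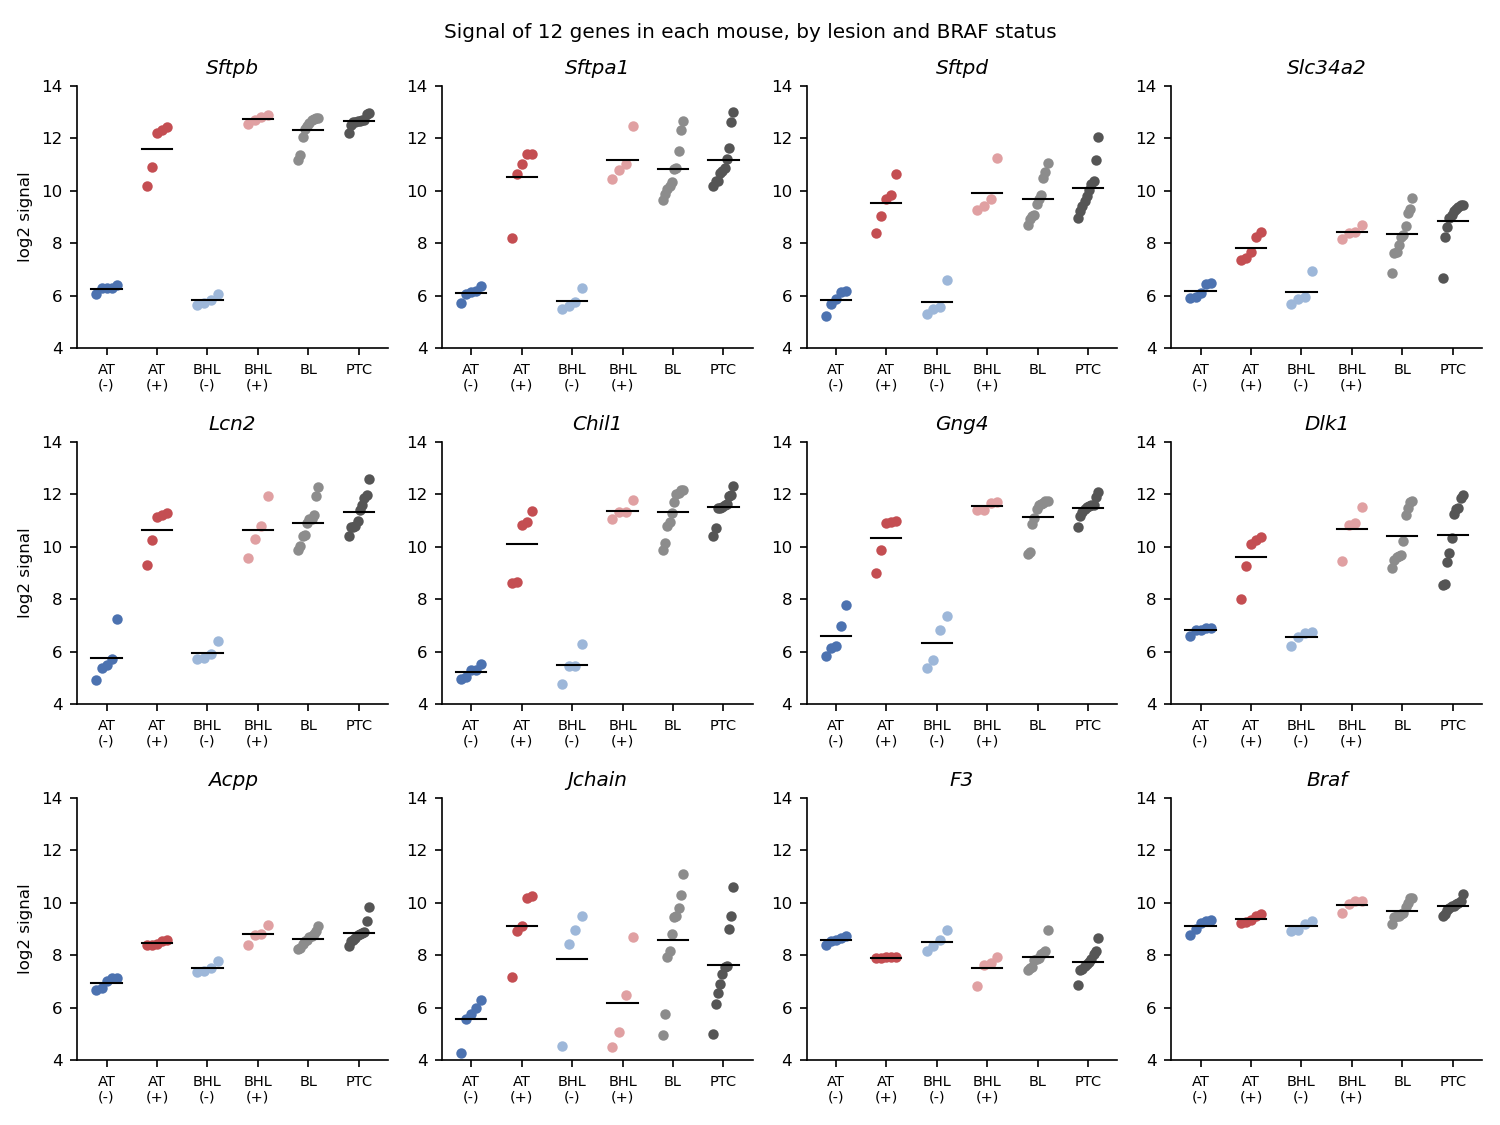
Each point is the log2 signal of 1 mouse for the gene named above the panel, by group on the x axis: asymptomatic thyroids (AT) and benign hyperplastic lesions (BHL) without (-) and with (+) BRAFV600E, then borderline lesions (BL) and papillary carcinomas (PTC), all *BRAF*(+), with lines at group means. *Sftpb* lies at 6.05 to 6.40 in *BRAF*(-) and at 10.19 to 12.42 in *BRAF*(+) asymptomatic thyroids, whereas *Braf* overlaps between them.

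The 4 probe sets that fell did so by little. *F3*, the gene of tissue factor, which starts blood coagulation, was at 8.39, 8.57, 8.56, 8.67 and 8.72 in *BRAF*(-) AT, against 7.91, 7.87, 7.92, 7.92 and 7.95 in *BRAF*(+) AT, so that the *BRAF*(+) mice were almost identical, and it fell by 0.69 (SE 0.094, adjusted p = 0.0112). A probe set of *Higd1a*, an inner mitochondrial membrane protein induced by low oxygen, fell by 0.81 (SE 0.13, adjusted p = 0.0222), from 6.77 to 7.45 down to 5.82 to 6.48, and *Art3*, of the ADP-ribosyltransferase family, fell by 0.57 (SE 0.10, adjusted p = 0.0352). Of 77 probe sets of *Hmcn1*, which encodes the matrix protein hemicentin, 77 were below 0 and 1 was called, at -0.82 (SE 0.13, adjusted p = 0.0244), and the other probe set of *Higd1a* was at -0.29 (adjusted p = 0.559). None of the 4 stayed called in every fit that left out 1 mouse. The next genes by p had differences of -0.86 for *Vsig4*, a complement receptor of macrophages (adjusted p = 0.0541), -0.57 for *Kcnn2*, a potassium channel (adjusted p = 0.0587), and -0.89 for *Cidec*, a lipid droplet protein of adipocytes (adjusted p = 0.0671).

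A second set of genes that rose belongs to antibody-producing cells. Immunoglobulins are made by B cells and plasma cells, and *Jchain* encodes the chain that joins IgA and IgM into polymers. *Jchain* was at 5.77, 4.27, 6.29, 5.97 and 5.58 in *BRAF*(-) AT, against 10.26, 8.92, 7.15, 9.13 and 10.17 in *BRAF*(+) AT, a difference of 3.42 (SE 0.52, adjusted p = 0.0189). Of 31 probe sets of immunoglobulin genes, a group picked after these values had been seen, 13 rose, by 2.38 to 4.54, and 0 fell, and the median difference of the 31 was 2.38. Of all probe sets 0.278% were called higher. The count moved by over 1.5 times without 7 of the 10 mice, to 26 without M_779, 7 each without M_940 or M_948, 5 without M_523, 4 without M_945, 3 without M_956 and 2 without M_957, and 2 of the 13 were called in every fit that left out 1 mouse, while *Jchain* was called in 5 of the 10. The genes of a locus share sequence, so these probe sets are not separate measurements. *Ighm*, the heavy chain of IgM, was at 3.48, 3.24, 3.48, 3.14 and 2.92 in *BRAF*(-) AT, against 6.12, 5.69, 3.69, 6.01 and 6.54 in *BRAF*(+) AT (difference 2.39, SE 0.43, adjusted p = 0.042). This is 1 of 3 *Ighm* probe sets, called in 1 of the 10 fits without 1 mouse, and the other 2 differed by 1.20 and 1.72 (adjusted p = 0.0973 and 0.0922). In *Jchain* and this *Ighm* probe set M_779 was the lowest *BRAF*(+) mouse, and the groups did not overlap. Of 7 measured genes in the B cell list only *Jchain* was called, and *Ms4a1*, which encodes CD20 of mature B cells, was at 3.75 ± 0.086 and at 4.08 ± 0.19 (SD, n = 5 each; difference 0.33, adjusted p = 0.336 from limma). In pieces of tissue, more cells of a type and more RNA per cell cannot be told apart.

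Some other leukocyte genes were called, and the ones named here are examples. *Cd209a* and *Cd209c*, lectin receptors of dendritic cells, rose by 1.53 and 1.69 (adjusted p = 0.0482 and 0.0189), *Itgal*, the integrin chain of LFA-1 on leukocytes, rose by 0.98 (adjusted p = 0.043), and *Was*, the actin regulator of blood cells, rose by 0.73 (adjusted p = 0.0410). *Cd209a*, *Itgal* and *Was* were each called in 1 of the 10 fits that left out 1 mouse, and *Cd209c* in 7. Of 10 T cell genes 0 were called and 6 were higher at an unadjusted p of 0.05, which held for 6.01% of all genes, with a median of 0.57 (0.241% of all genes were called higher and 0.015% lower). Their mean level was 5.37 to 5.60 in *BRAF*(-) AT and 5.68 to 6.53 in *BRAF*(+) AT, so that the groups did not overlap. The mean levels of the surfactant, B cell, human PTC marker and receptor tyrosine kinase lists did not overlap either. In BHL the median difference of the T cell genes was -0.69. Of 9 genes of MHC class II presentation and dendritic cells 0 were called and 8 were higher at that unadjusted p (median 0.97), and of 19 macrophage genes 0 and 7 (median 0.47). For both lists the mean levels overlapped, at 6.75 to 8.00 against 7.66 to 9.14 and at 6.93 to 7.83 against 7.33 to 8.65. Neutrophil genes had a median of 0.082.

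Several called genes were neighbours on a chromosome. Of 54 called genes with a single name 18 lay in 8 groups, within each of which called genes were at most 10 measured genes apart on GRCm38.p6. How many of 54 genes drawn from the 19917 placed would lie so close was not computed. Some groups hold related genes (*Igkv*, *Cd209* and *Olfr*), and whether their probes share sequence was not tested. *Sftpa1* and *Sftpd* flank *Mbl1*, a liver lectin gene that did not move (0.072, adjusted p = 0.934), and *Mat1a*, the methionine adenosyltransferase gene on the other side of *Sftpa1*, rose by 0.98 (adjusted p = 0.0189). *Meg3*, the maternally expressed noncoding RNA next to the paternally expressed *Dlk1*, rose by 1.39 (adjusted p = 0.039), from 6.62 to 8.10 up to 8.08 to 8.89 with a slight overlap, whereas *Rtl1*, the next gene, differed by 0.023. *Lipk*, a lipase of skin, and *Ankrd22* lie on both sides of *Lipn* and *Lipm*, which differed by 0.17 and -0.097. Another was a run of olfactory receptor genes, which are normally read in sensory neurons of the nose. *Olfr975*, *Olfr979* and *Olfr980* rose by 1.08, 1.33 and 0.82 (adjusted p = 0.00431, 0.00223 and 0.02), and *Olfr976* and *Olfr978* between them differed by 1.27 and 0.53 (adjusted p = 0.0866 and 0.239). *Olfr979* was at 4.72, 4.58, 4.39, 4.63 and 4.28 in *BRAF*(-) AT, against 5.69, 5.74, 5.56, 6.03 and 6.16 in *BRAF*(+) AT, so that the groups did not overlap. The other 16 of the 21 receptor genes measured there lay between -0.12 and 0.079, and 3 of 1027 olfactory receptor genes on the array were called higher, a share of 0.292% that is close to that over all genes (0.241%). In BHL the 5 genes of the run were called higher in *BRAF*(+) mice, by 0.79 to 2.43 (2.89% of all probe sets were called higher there). What is transcribed there was not tested.

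**Figure D3:**
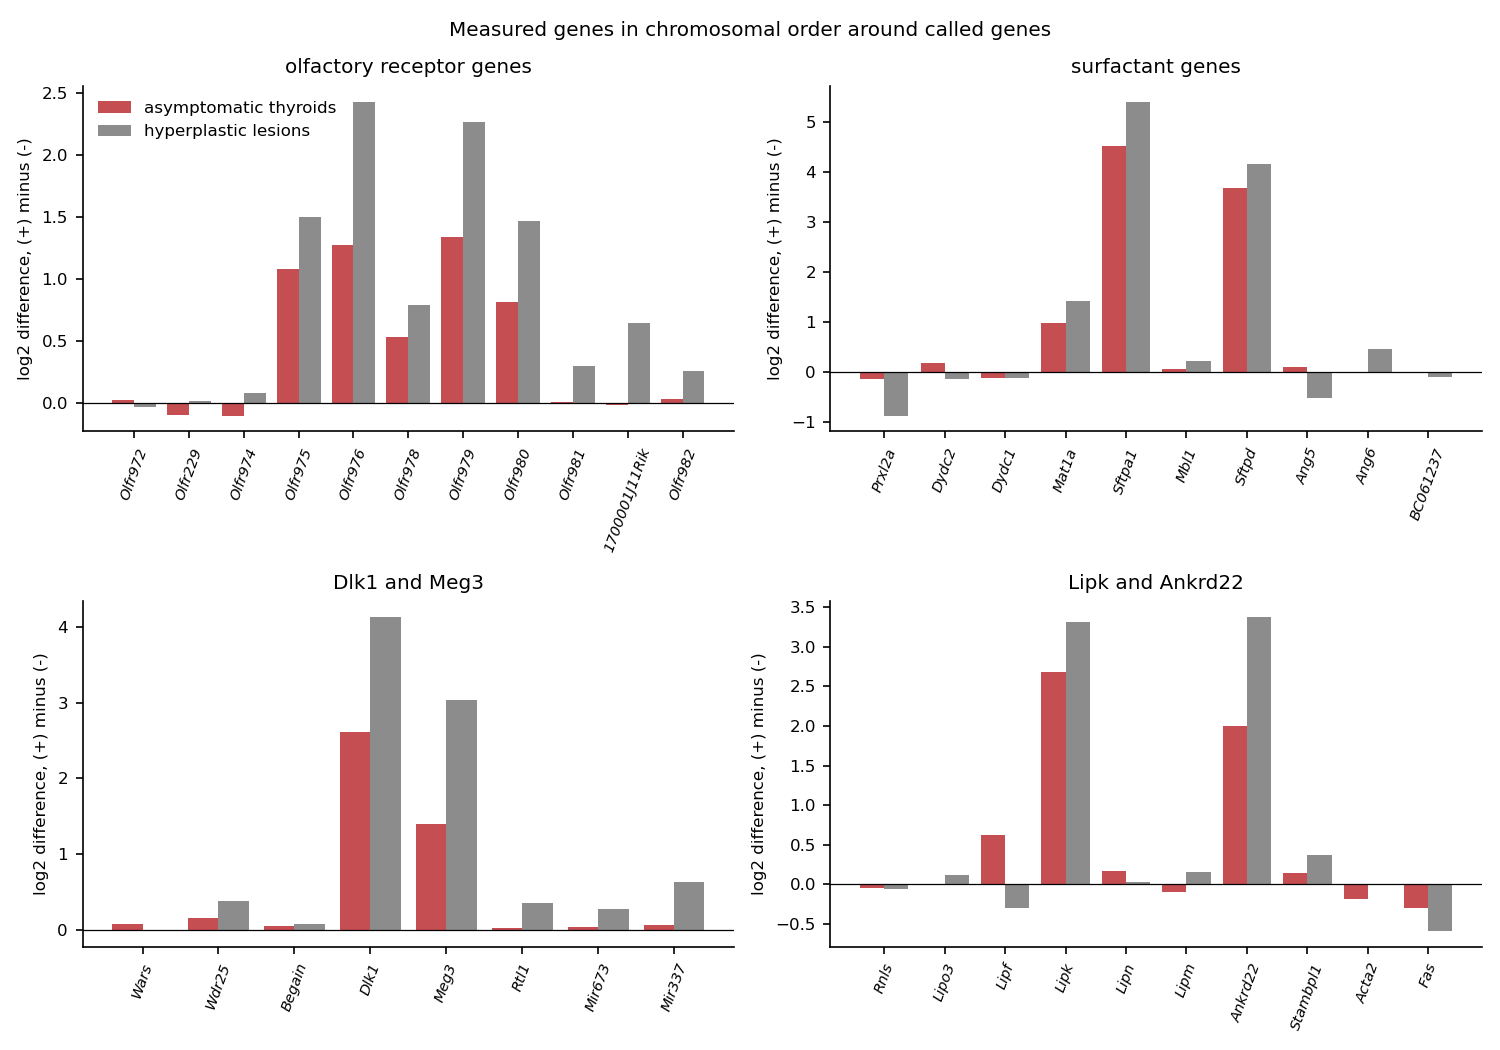
Bars give the log2 difference, *BRAF*(+) minus *BRAF*(-), of measured genes in chromosomal order around 4 of the 8 groups of neighbouring called genes, in asymptomatic thyroids (red) and hyperplastic lesions (grey). *Olfr975* to *Olfr980* lie above 0 in both kinds of tissue, by 0.53 to 1.33 in asymptomatic thyroids, while the receptor genes next to them lie near 0.

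Few genes of the cascade and of its known targets were called. Of 11 measured genes of the RAF, MEK and ERK cascade 0 were called in either direction, with a median of 0.11 that was -0.046 without M_940. Of 18 genes of ERK output and feedback 0 were called, 7 were higher and 1 lower at an unadjusted p of 0.05, and the median was 0.12. Over all genes 6.01% were higher and 3.81% lower at that unadjusted p, which are the shares to set beside the list counts here. *Dusp6*, the phosphatase that switches ERK off, was at 8.69, 8.57, 8.92, 8.62 and 8.83 in *BRAF*(-) AT, against 9.76, 8.81, 8.92, 9.61 and 9.88 in *BRAF*(+) AT, a difference of 0.59 (95% interval 0.20 to 0.99; adjusted p = 0.253). M_523 lay among the *BRAF*(-) values, M_779 was level with the highest of them to 2 decimals, and the other 3 lay above. *Ccnd1*, the G1 cyclin, differed by 0.97 (adjusted p = 0.296), whereas *Etv4*, *Etv5* and *Spry4* differed by 0.12, 0.065 and 0.083. *Egr1*, an immediate early transcription factor, had a difference of 1.05 (adjusted p = 0.079), and *Arc*, an immediate early gene best known from neurons, rose by 0.81 (SE 0.13, adjusted p = 0.0244). Of 13 receptor tyrosine kinase genes 0 were called and 6 were higher and 2 lower at an unadjusted p of 0.05; *Erbb2* and *Erbb3* differed by 0.62 and 0.47 (adjusted p = 0.141 and 0.169). Of the 18 genes that the study chose on mice that include these, 1, *Slc34a2*, was called, 9 were higher and 2 lower at an unadjusted p of 0.05, and the median was 0.47, which is no independent evidence of their direction.

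Genes of the differentiated thyrocyte were not called. Of 20 measured genes of thyroid differentiation 0 passed, 3 were lower at an unadjusted p of 0.05 (3.81% over all genes), and the median was -0.073. *Nkx2-1*, *Pax8* and *Foxe1*, the transcription factors of the thyroid lineage, differed by 0.23, 0.042 and 0.098, with 95% intervals that reached at most 0.54 upwards and -0.27 downwards. *Dio1*, the deiodinase that makes active hormone, was at 11.62, 11.52, 11.33, 10.90 and 11.06 in *BRAF*(-) AT, against 9.85, 11.35, 11.08, 10.55 and 9.96 in *BRAF*(+) AT, a difference of -0.59 (95% interval -1.07 to -0.12; adjusted p = 0.37). *Slc5a5*, the iodide transporter, was at 11.74, 11.58, 11.12, 9.99 and 10.76 and at 9.37, 11.48, 10.97, 10.69 and 9.18, respectively, a difference of -0.46 (95% interval -1.21 to 0.29; adjusted p = 0.771). M_1003 and M_948 had the lowest values of both genes, and the same mice were highest in 29 each of the 65 probe sets that rose. Proliferation genes had a median of 0.25 and 15 of 15 positive differences (51.1% of all genes) with 0 called, and extracellular matrix genes had a median of 0.055 with *Fn1*, fibronectin, at a difference of 0.55 (adjusted p = 0.384).

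**Figure D4:**
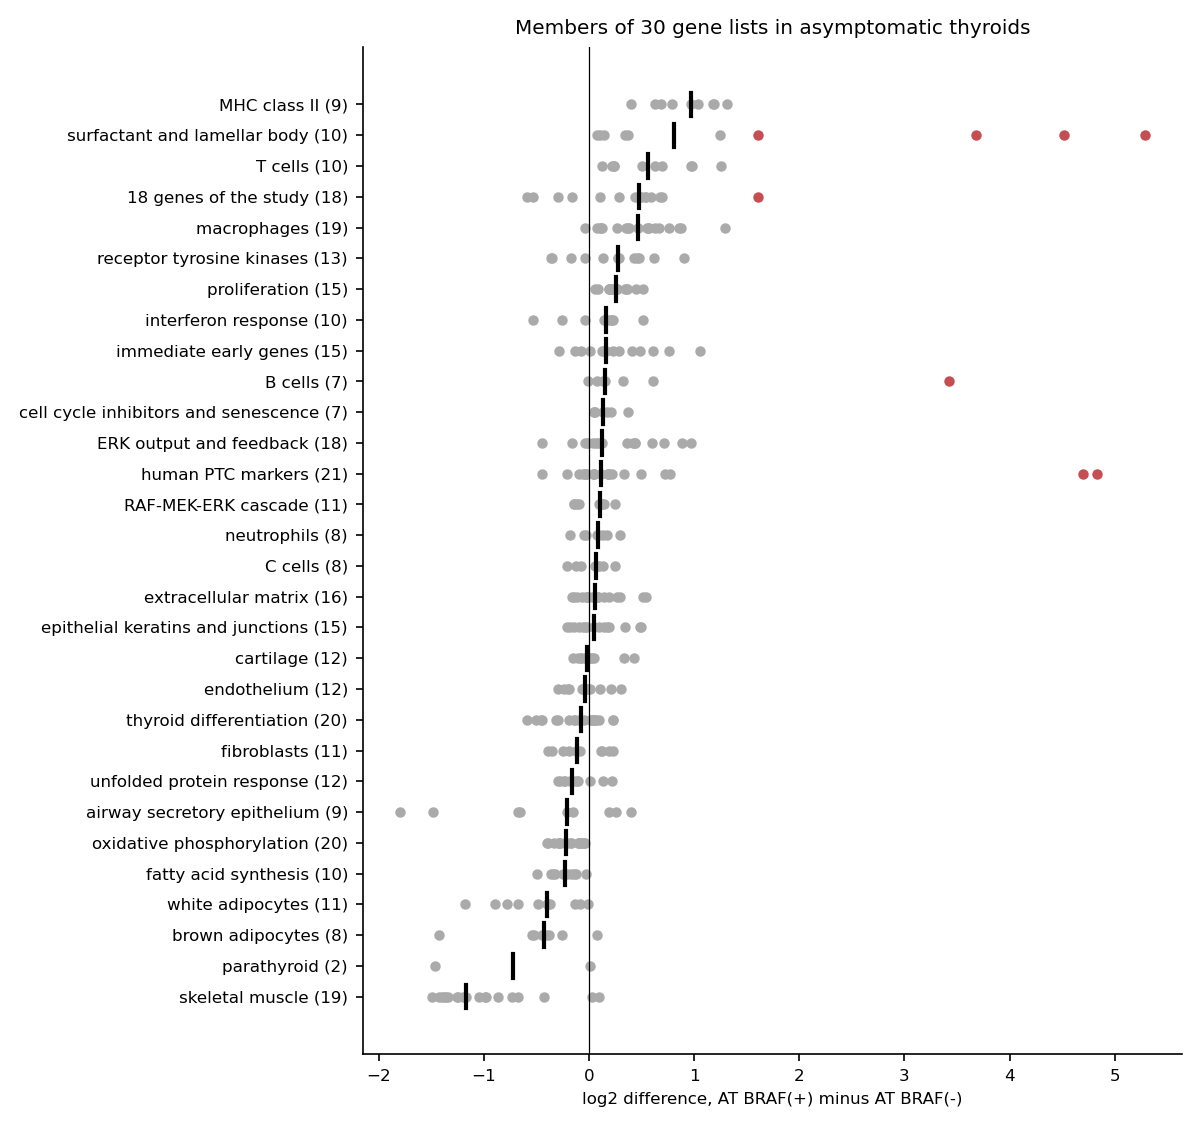
Each point is 1 measured gene of a list, at its log2 difference between *BRAF*(+) and *BRAF*(-) asymptomatic thyroids on the x axis; numbers of measured genes stand behind the list names, bars are medians and red points passed an adjusted p of 0.05. The 4 surfactant genes, *Lcn2*, *Chil1* and *Jchain* are the called members, and skeletal muscle, whose genes were highest in M_940, lies at a median of -1.17, which is -0.074 without that mouse.

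The 5 *BRAF*(+) mice were not alike. Over the 65 probe sets that rose, the mean signal was 8.71 in M_1003, 8.73 in M_948, 8.22 in M_945, 7.60 in M_523 and 7.18 in M_779, against 5.72 to 5.87 in the *BRAF*(-) mice. M_779 was the lowest *BRAF*(+) mouse for 37 of the 65 and M_523 for 23. These are the tg2 mouse and the male, so line, age and sex cannot be told apart for them from differences between single mice. *Braf* did not follow this order, since M_779 was at 9.49 and M_1003 at 9.28.

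In BHL, which are other mice, most of these differences were found again, while those of the immunoglobulin genes and of some others were not. Of the 69 probe sets, 52 had the same sign in BHL (54.7% of all probe sets were above 0 there) and 42 were called in the same direction, which is 60.9% of the AT calls and 2.55% of the 1644 BHL calls (7.02% of all probe sets were called in BHL). The 13 immunoglobulin probe sets had differences below 0 in BHL, with a median of -1.09 and 0 calls, and of the other 52 that rose, 48 were above 0 and 40 were called. Of the 4 that fell, 4 were below 0 in BHL and 2 were called. Among those not called in BHL were *Pglyrp1* (0.32, adjusted p = 0.777), *Cd209a* (0.99, adjusted p = 0.279) and *Higd1a* (-0.41, adjusted p = 0.368), all from limma. *Sftpb* differed by 6.92 in BHL (adjusted p = 1.87e-08), *Chil1* by 5.89 (adjusted p = 5.85e-06), *Dlk1* by 4.13 (adjusted p = 0.000368) and *Lcn2* by 4.70 (adjusted p = 0.000404). *Jchain* differed by -1.67 in BHL (adjusted p = 0.512), where *BRAF*(-) mice ranged from 4.54 to 9.51, and *Itgal*, *Was* and *Trerf1* were also at or below 0. *BRAF*(-) BHL had a median of 7.33 over the 13 immunoglobulin probe sets, *BRAF*(-) AT one of 5.27 and *BRAF*(+) AT one of 9.02. In BL and PTC all 65 group means exceeded those of *BRAF*(-) AT, and for the 52 probe sets other than immunoglobulins 41 in BL and 42 in PTC exceeded the means of *BRAF*(+) AT. Of the 13 immunoglobulin probe sets 0 exceeded them in either, with medians of 8.22 in BL and 6.98 in PTC. The 65 were chosen for being lower in *BRAF*(-) AT, and the shares over all probe sets were not computed.

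**Figure D5:**
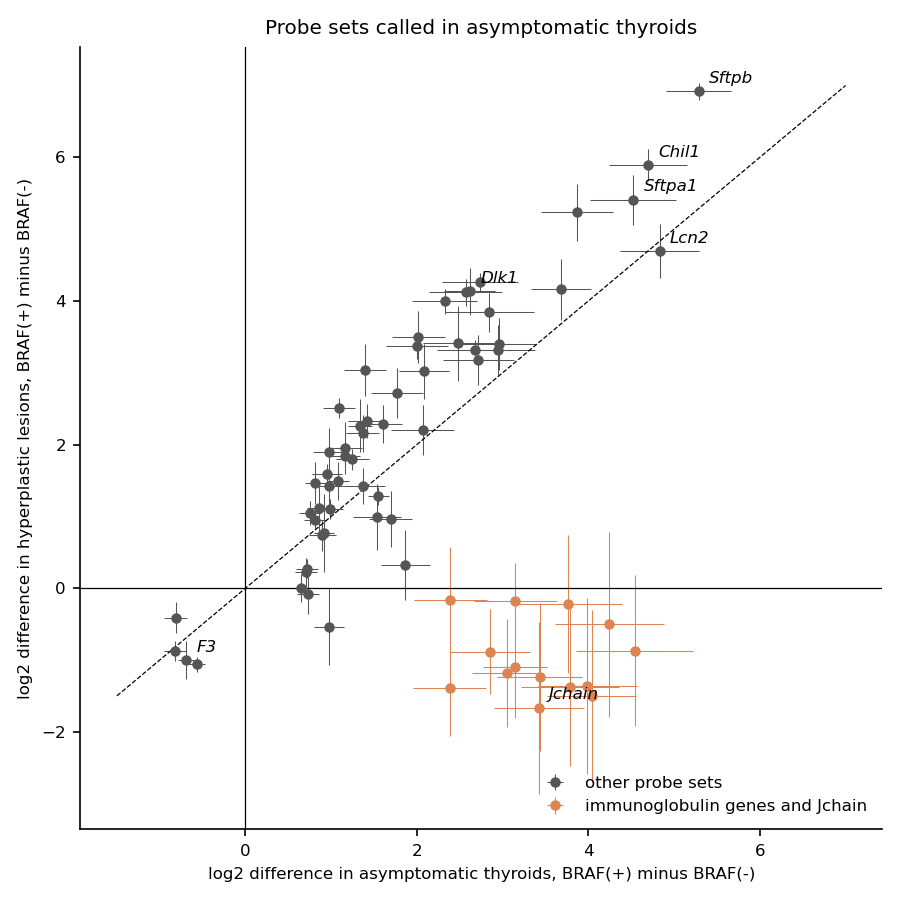
Each point is 1 of the 69 probe sets called in asymptomatic thyroids, with its log2 difference there on the x axis and in hyperplastic lesions on the y axis, bars of 1 SE and a dashed line of equality. Immunoglobulin genes and *Jchain* (orange) lie below 0 in hyperplastic lesions, while most others lie above 0 in both, with *Sftpb* highest at 5.29 and 6.92.

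The difference between both *BRAF* effects was tested as an interaction over the 18 mice. By limma it was called for 0 of 23410 probe sets (0%), with 2315 (9.89%) at an unadjusted p of 0.05, and the signed effect was higher in BHL for 4.43% of all probe sets and lower for 5.46%. Of the 69 probe sets, 36 were at an unadjusted p of 0.05, 16 with the effect larger in size in BHL and 20 with it larger in AT, and all 13 immunoglobulin probe sets were among the latter. The 69 were chosen on AT mice that also enter the interaction, so these counts are partly set by that choice. The value for *Jchain* was -5.10 (adjusted p = 0.179) and that for *Sftpb* was 1.63 (adjusted p = 0.221). The smallest adjusted p was 0.064, shared among others by *Prg4*, the joint lubricant lubricin, at 3.38, *Ptpn13*, a tyrosine phosphatase, at 1.19, *Car4*, a carbonic anhydrase, at -2.17, and *Alpl*, an alkaline phosphatase, at -1.83. *Ptpn13* differed by 0.77 in AT and by 1.96 in BHL, whereas *Alpl* differed by -0.11 and by -1.91. The count depended on single mice, as it was 140 without the *BRAF*(+) BHL mouse M_958, 57 without M_940, 29 without M_1003 and 1 without M_957.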

How the data were processed

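RNA from part of each thyroid was labelled per the labels with a GeneChip 3' IVT Express Kit and hybridised to Affymetrix Mouse Gene 1.0 ST arrays, 1 array per mouse. Whether the labels name the right kit for this array was not settled. The deposited log2 values were made by the authors with RMA, which corrects background, normalises arrays by quantiles and summarises probes, and its version and the array's genome build are not given in the sources used here. Values of 35556 probe sets were deposited for 38 mice, and 23410 with a gene annotation were analysed. Quantile normalisation gives all arrays nearly the same distribution, so a shift of the whole transcriptome cannot be seen. An array holds no read depth, and the number of mice limits the precision.

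Differences were fitted with limma 3.58.1 in R 4.3.3, with *BRAF* status and sex over the 10 asymptomatic thyroids, and p-values were adjusted by Benjamini-Hochberg over all 23410 probe sets. BHL were fitted alone in the same way, and the interaction over the 18 non-malignant mice. The script was tested on simulated data. Intervals are 95% from limma. In the lists each gene was read from its brightest probe set by the average of the 38 mice, and probe sets with several gene names were left unnamed. Gene names came from the platform annotation, of which 21698 probe sets matched RefSeq by Entrez number. Named by rule were *Braf*, the 20 genes that rose most, the 10 lower genes with the smallest p, the 18 genes of the study, up to 4 members per list of 31 lists, thyroid and cell type markers, and 5 interaction genes per direction. Other named genes were chosen after their values were seen. The mice, lists and alternatives were chosen with earlier results of these data known. Promoters came from a RefSeq table, which matched all genes searched but *Sftpd*. Alternatives were other sets of probe sets, scaling, covariates, mice, variance models and thresholds. Figures were drawn with matplotlib 3.10.9.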

Additional observations from a re-analysis of the deposited data

Results flagged for a closer look

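Of 156 groups of 5 mice, 2 for each of 78 genes named in the report, 8 (5.13%) held a mouse whose gap to its nearest neighbour, as a share of the whole range, passed Dixon's critical value for 5 values, which chance passes in about 5% of groups. Among *BRAF*(-) AT, M_940 was highest for *Clu* (7.64 against 7.47 for the next mouse, gap 0.916 of the range) and for *Egr1* (8.45 against 7.42, gap 0.726), and lowest for *Tg* (13.63 against 13.71, gap 0.755). M_524 was highest for *Pth* (12.87 against 3.72, gap 0.954). Among *BRAF*(+) AT, M_779 was lowest for *Sftpa1* (8.19 against 10.64, gap 0.763) and *Erbb3* (9.23 against 9.66, gap 0.719), M_1003 was lowest for *Pax8* (11.09 against 11.67, gap 0.733), and M_523 was highest for *Lipn* (4.00 against 3.45, gap 0.763).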

How the results depend on the processing

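The called probe sets kept their direction in all 25 alternatives, as far as each measured them (63 of 69 with the flat filter and 68 without dim probe sets). The 69 calls (65 higher, 4 lower) became 18 (17, 1) over all probe sets of the table, 6 (6, 0) with muscle and adipocyte scores as covariates, 28 (28, 0) in females only, 28 (25, 3) with a trend and robust variance, 679 (535, 144) with array weights, 2 (1, 1) in the unmoderated model and, chosen after seeing the data, 22 (19, 3) without both *BRAF*(-) mice M_524 and M_940. Lower calls were 0 with the flat filter, 10 with the spread of 18 mice and 7 with that of 38. Leaving out 1 mouse gave 13 to 533 calls, 13 to 488 higher and 0 to 45 lower. The interaction, at 0 calls, had 10 over all probe sets, 26 with the flat filter, 199 with array weights, and 0 to 140 when 1 mouse was left out. For these counts the cause was not tested. The other counts stayed within 1.5 times. *Sftpb* was called in 24 of 25 alternatives and lost only in the unmoderated model (adjusted p = 0.0935). Of single gene values in AT, 3519 stayed on their side of the threshold, 244 lost the call, 80 gained one and 23 moved by more than 1 SD, and 485 list medians moved by less and 11 by more, 8 of these with the muscle and adipocyte scores. The median of the RAF, MEK and ERK genes, 0.11, was -0.046 without M_940, -0.079 without M_524 and M_940 and -0.036 with the scores. No paired analysis was possible because the mice of both groups share no numbers. With 5 mice a group, small differences were not detectable.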

Other observations

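White adipocyte and oxidative phosphorylation genes had differences below 0 in *BRAF*(+) AT, with 0 called. Of 11 white adipocyte genes 11 were below 0 and 6 were lower at an unadjusted p of 0.05 (3.81% of all genes), with a median of -0.40; *Retn*, the hormone resistin, differed by -1.18 (adjusted p = 0.134) and *Adipoq*, adiponectin, by -0.78 (adjusted p = 0.162). The mean level of the list was 9.17 to 9.71 in *BRAF*(-) and 8.35 to 9.25 in *BRAF*(+) AT. Of 20 genes of oxidative phosphorylation 20 were below 0 (median -0.22) and 4 were lower at that unadjusted p, with mean levels of 9.99 to 10.52 against 9.85 to 10.17. Without M_940 the medians were -0.50 for white adipocytes and -0.11 for oxidative phosphorylation.

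Of 9 airway secretory genes 0 were called, 1 was higher and 3 were lower at an unadjusted p of 0.05, and the median was -0.21, which was -0.50 without M_940. Over all genes 6.01% were higher and 3.81% lower at that unadjusted p. *Reg3g*, an antibacterial lectin of epithelia, was at 6.12, 7.94, 5.19, 6.94 and 5.48 in *BRAF*(-) AT, against 4.87, 4.16, 5.25, 4.82 and 4.78 in *BRAF*(+) AT (difference -1.48, adjusted p = 0.235), and its groups overlapped only through M_779 and M_940. The part of surrounding tissue in these values was not tested.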
